A study of Mus musculus with 18 samples.

Results

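Macrophages lacking p110gamma (genotype p110g-/-) were compared between culture with interleukin 4 (IL-4) and culture with macrophage colony-stimulating factor (M-CSF) alone. The comparison rested on 6 of the 18 RNA sequencing libraries of the study, 3 per group, and on the 15627 of 16474 listed genes that reached a value of 10 in at least 3 libraries. All mice were C57BL/6 and 8 weeks old, and macrophages were derived from their bone marrow over 6 days with M-CSF at 50 ng/ml. The control cells of the p110g-/- genotype then stayed in M-CSF at 20 ng/ml for 24 h. The IL-4 cells of that genotype were kept for 48 h in the same M-CSF dose with IL-4 added at 20 ng/ml. In every difference reported here, IL-4 and the additional 24 h of culture cannot be told apart. Wild type (WT) macrophages of the same strain, age and culture, with 3 libraries after M-CSF and 3 after IL-4, gave the response with which the p110g-/- response was compared. The remaining 6 libraries, from both genotypes after M-CSF with interferon gamma and 100 ng/ml lipopolysaccharide for 24 h, entered only the shared estimate of the spread. The labels give neither the part of the gene that was deleted nor the number of animals behind a library, so p-values measure the spread between these samples, which may be technical.

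IL-4 binds the receptor chain Il4ra, which pairs with the common gamma chain Il2rg or with Il13ra1. Janus kinases on these chains activate the transcription factor STAT6, and adaptor proteins of the insulin receptor substrate family link the same receptor to phosphoinositide 3-kinases. In macrophages the resulting state is known as alternative activation, with arginase, resistin-like and chitinase-like proteins and lectin receptors as its textbook products. p110gamma, encoded by Pik3cg, is the catalytic subunit of the phosphoinositide 3-kinase that G protein-coupled receptors engage in leukocytes.

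Values are normalised signal, a gene's read count divided by a factor for its library, and changes are given as log2 of the signal plus 1, IL-4 minus M-CSF, with the standard error (SE). The 6 libraries held 40.1 M to 68.1 M reads, and a count of 0 allowed up to 3 reads, a signal of 2.15 to 3.45. Pik3cg itself read 1888, 2046 and 1966 in the p110g-/- M-CSF libraries and 956, 1083 and 965 in the IL-4 libraries. The WT libraries read 4994 to 5330 after M-CSF and 2953 to 3281 after IL-4. Each p110g-/- library thus lay below every WT library under the same stimulus, but RNA from the locus was still read. Within the mutant cells Pik3cg fell further after IL-4, by 0.97 on the log2 scale (SE 0.23, adjusted p = 0.0034).

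The labelled cell type was checked against 16 macrophage identity genes. Csf1r and Itgam, given first, were named after their values were seen and are among the members without a call. Csf1r, the M-CSF receptor, read 110660 to 118563 after M-CSF and 97074 to 109455 after IL-4, and did not pass the test (adjusted p = 0.14). Itgam, an integrin of myeloid cells, read 41449 to 63970 and 42503 to 56092, without a call either. Summed over the list, signal ran from 991792 to 1034219 after M-CSF and from 490681 to 576757 after IL-4. Lyz2 alone made up 56.1% of that signal over the 6 libraries. Of the 16 genes 11 fell (68.8%, against 21.2% of all tested genes) and 0 rose, with a median log2 change of -1.11. In RNA from whole cultures, fewer cells of a type and less RNA per cell cannot be told apart. Among the 3 libraries of each group, number 1 stood apart. Its mean squared difference from numbers 2 and 3 was 44.8 and 54.5 times the counting variance after M-CSF, against 27.8 between 2 and 3. After IL-4 it was 122 and 124 times, against 37.1.

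Between M-CSF and IL-4 culture, 43.9% of the tested genes differed in p110g-/- macrophages at a Benjamini-Hochberg adjusted p under 0.05 (limma). Of these 6855 genes, 3540 were higher after IL-4, 22.7% of all tested, and 3315 were lower, 21.2%. Most shifts were small, with 4728 called genes under 1 on the log2 scale. The strongest changes were mainly increases. At a log2 change of at least 3, 162 genes were higher and 66 lower, and at a log2 change of at least 4, 90 were higher and 15 lower. The 3 IL-4 libraries did not overlap with the 3 M-CSF libraries in 58.0% of tested genes. The median log2 change over all tested genes was -0.01.

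The genes that rose most had at most a few reads in M-CSF alone. Retnla, which encodes resistin-like alpha, read 2.3, 0 and 1.0 after M-CSF and 269012, 682610 and 697974 after IL-4 (adjusted p = 1.1e-08). Ear11, an eosinophil-associated ribonuclease gene, read 0, 0 and 1.9 and then 23792, 48446 and 39171 (adjusted p = 3.2e-11). Arg1, the arginase that turns arginine into ornithine, read 0, 1.1 and 0 and then 3157, 4593 and 4835 (adjusted p = 7.5e-11). No M-CSF library held more than 3 reads of these genes, so no fold is given, and the IL-4 libraries all stood far above them. In all, 54 genes had at most 3 reads in each M-CSF library and at least 10 in each IL-4 library, and 6 genes showed the opposite pattern. The 54 included the chemokine gene Ccl17, at 3.4, 1.1 and 1.0 before and 147, 132 and 174 after IL-4. They also included genes of excitable cells. The sodium channel gene Scn3a went from 1.1, 0 and 1.0 to 3041, 3774 and 3869 (adjusted p = 8.3e-13), and the potassium channel gene Kcnd3 from 1.1, 0 and 0 to 1459, 2262 and 2465 (adjusted p = 4e-11). Further members of this set were the cytokine receptor gene Il31ra, with 1254 to 1362 after IL-4, the homeobox gene Msx3, with 381 to 713, and the tight junction gene Cldn11, with 338 to 512. For D630039A03Rik, a gene without an assigned role here, the IL-4 values were 311, 440 and 551.

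**Figure D1:**
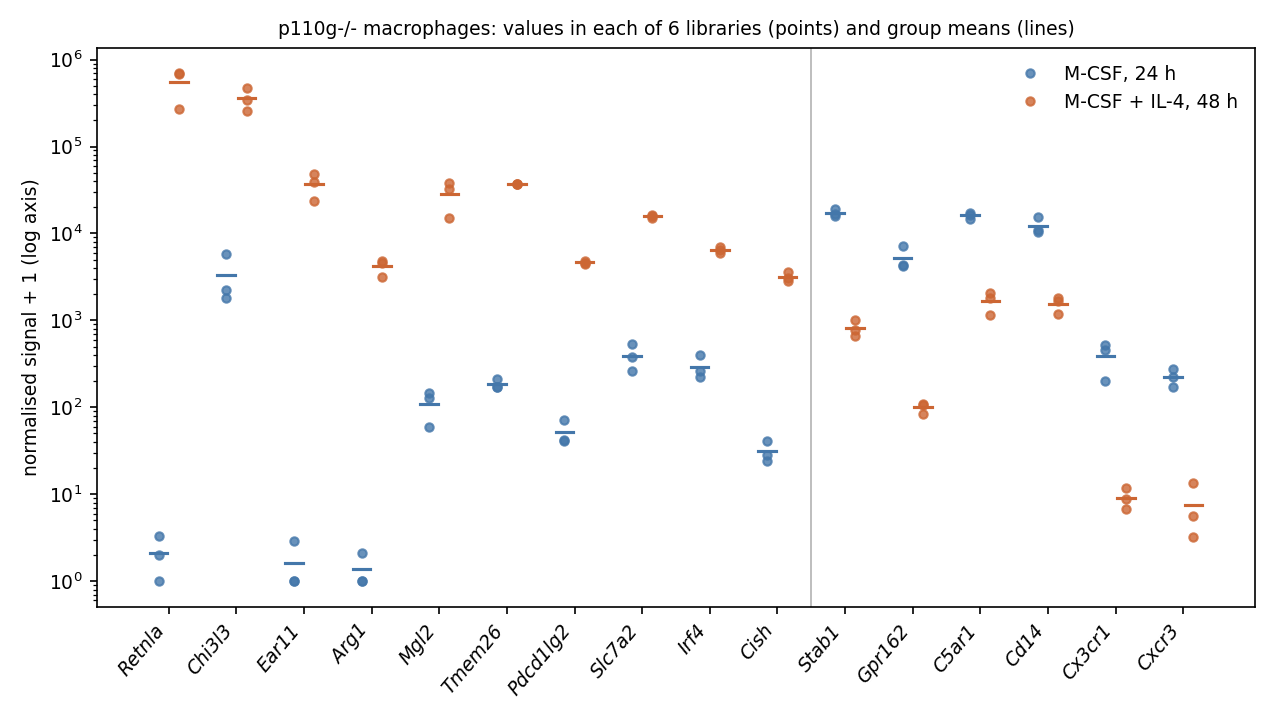
Normalised signal plus 1 (log axis) of 16 genes in the 6 p110g-/- libraries. Points are libraries and short lines are means of 3. The 10 genes left of the grey line are higher in all 3 IL-4 libraries than in all 3 M-CSF libraries, and the 6 genes to its right are lower in all 3.

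Among genes that were measurable in both groups, Ccl24, which encodes the eosinophil chemoattractant eotaxin-2, rose most. It read 3.4, 2.2 and 7.6 after M-CSF and 1777, 8399 and 7644 after IL-4 (log2 change 9.94, SE 0.60, adjusted p = 8.4e-09). IL-4 library 1 lay well below the other two, and without it the log2 change was 10.66. Ocstamp, a gene of macrophage and osteoclast fusion, read 2.3, 16.4 and 4.8 and then 9533, 5819 and 5426 (log2 change 9.92, SE 0.70). Without M-CSF library 2 its log2 change was 10.58. Flt1, a receptor for vascular endothelial growth factor, went from 14.9, 10.9 and 5.7 to 3020, 3693 and 3104 (log2 change 8.23, SE 0.55). Mgl2, a galactose-type lectin receptor, went from 58.6, 144 and 125 to 15232, 38280 and 32339 (log2 change 8.01, SE 0.38). Tmem26, a transmembrane protein gene, varied least, at 172, 212 and 171 before and 36577, 37174 and 36879 after IL-4 (log2 change 7.64, SE 0.27). These 5 genes were among the 15 largest increases, which were taken only from genes without overlap between the groups. Of all tested genes 58.0% had no overlap, so the separation of these 5 followed from the choice. Ear3, another ribonuclease gene of the Ear family, rose by a log2 change of 7.44 (SE 0.42). The handling of reads shared by Ear genes is not given in the sources used here, so the split between them is uncertain. For the lowest of these genes the size depended on the constant added before taking logs. With 10 in place of 1, the log2 change was 8.42 for Ccl24, 8.64 for Ocstamp, 7.34 for Flt1 and 6.07 for Ear3.

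Promoter sequence is shown for 4 of the strongly raised genes and 2 of the lowered interferon-stimulated genes, chosen because their windows hold the motif marked. Most windows of strongly raised genes do not hold it. The windows are 250 bases before the start site, 5′ to 3′ on the gene's strand, from RefSeq (GRCm38.p6), whereas the submitters' notes name mm9. In the first 4, capitals mark TTC and GAA with 4 bases of any kind between them, the spacing usually given for STAT6. In the last 2, capitals mark GAAA and GAAA with 2 bases between them, on either strand, the core of the interferon response element. Retnla lies at chr16:48842359-48842608 (+), Pdcd1lg2 at chr19:29410669-29410918 (+), Tmem26 at chr10:68723496-68723745 (+) and Slamf1 at chr1:171766882-171767131 (+). Ifit3 lies at chr19:34583279-34583528 (+) and Oas3 at chr5:120777660-120777909 (-).
Retnla: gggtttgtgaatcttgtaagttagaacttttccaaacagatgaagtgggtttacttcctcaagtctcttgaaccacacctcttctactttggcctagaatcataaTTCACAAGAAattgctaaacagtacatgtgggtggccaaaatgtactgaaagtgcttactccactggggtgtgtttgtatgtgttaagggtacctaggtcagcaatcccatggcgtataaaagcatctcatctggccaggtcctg
Pdcd1lg2: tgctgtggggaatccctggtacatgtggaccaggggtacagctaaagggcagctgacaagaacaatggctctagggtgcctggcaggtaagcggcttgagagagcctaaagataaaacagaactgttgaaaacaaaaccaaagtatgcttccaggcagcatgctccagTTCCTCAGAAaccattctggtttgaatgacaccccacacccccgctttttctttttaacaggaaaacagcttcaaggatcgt
Tmem26: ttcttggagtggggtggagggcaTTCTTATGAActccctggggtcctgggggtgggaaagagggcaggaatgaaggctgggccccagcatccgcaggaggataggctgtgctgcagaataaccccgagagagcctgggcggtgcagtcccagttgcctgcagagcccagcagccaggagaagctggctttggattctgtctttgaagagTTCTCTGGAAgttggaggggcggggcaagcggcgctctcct
Slamf1: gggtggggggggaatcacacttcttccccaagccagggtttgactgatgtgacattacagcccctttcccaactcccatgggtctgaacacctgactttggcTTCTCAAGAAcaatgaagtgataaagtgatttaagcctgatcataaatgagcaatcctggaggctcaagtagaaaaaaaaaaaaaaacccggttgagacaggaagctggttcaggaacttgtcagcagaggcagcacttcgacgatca
Ifit3: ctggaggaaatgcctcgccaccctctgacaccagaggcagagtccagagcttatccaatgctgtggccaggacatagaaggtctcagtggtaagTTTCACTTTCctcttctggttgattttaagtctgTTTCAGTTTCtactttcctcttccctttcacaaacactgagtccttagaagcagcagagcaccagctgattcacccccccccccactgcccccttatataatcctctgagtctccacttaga
Oas3: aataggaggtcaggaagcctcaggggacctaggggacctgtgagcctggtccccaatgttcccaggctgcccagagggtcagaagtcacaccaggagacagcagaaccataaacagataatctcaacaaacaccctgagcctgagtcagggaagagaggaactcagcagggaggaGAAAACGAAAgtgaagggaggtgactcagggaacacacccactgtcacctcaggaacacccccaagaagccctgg

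The match began 145 bases before the start site in Retnla, 82 in Pdcd1lg2, 148 in Slamf1, and 227 and 41 in Tmem26. Windows of 300 bases, reaching 50 past the start site, were then searched on both strands. Of 75 windows of the genes raised by a log2 change of at least 4, 14 held the STAT6 form (18.7%), against 5.67% of windows of all tested genes and 6.95% of all 32851 windows of the table. Of 54 windows of genes lowered by at least 3, 2 held it (3.7%). With 3 bases between TTC and GAA, the form given for other STAT factors, 10 of the 75 raised windows and 7 of the 54 lowered windows held a match, against 7.01% of windows of tested genes. The interferon response form was in 11 of 26 windows of interferon-stimulated genes (42.3%), against 3.29% of windows of tested genes, and the STAT6 form was in 6 of the same 26 (23.1%). The table gave windows for 68 of the 90 raised genes, 46 of the 66 lowered and 22 of the 30 interferon-stimulated genes. These shares describe letters in a window and say nothing of binding.

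Among IL-4 receptor and STAT6 genes, the feedback inhibitors Cish, Socs1 and Socs2 rose. Of 19 tested members, 5 rose (26.3%) and 8 fell (42.1%), with a median log2 change of -0.01. Over all tested genes the shares were 22.7% and 21.2%. The feedback gene Cish read 40.2, 27.3 and 22.8 after M-CSF and 3085, 2866 and 3598 after IL-4 (log2 change 6.71, SE 0.27, adjusted p = 1.3e-10). Socs1 went from 49.4, 19.7 and 34.2 to 771, 1478 and 1811, and Socs2 from 27.6, 24.0 and 31.4 to 1210, 1633 and 1487. None of the 3 inhibitors showed overlap between the groups, as was so for 58.0% of all tested genes. All 3 were among the smallest p-values of the list, a choice that favours separation. Jak2, a kinase of cytokine receptors, rose by a log2 change of 1.61 (SE 0.15, adjusted p = 5.4e-07). Il13ra1, named here after its values were seen, fell from 1796, 1681 and 1501 to 357, 285 and 254 (log2 change -2.48, SE 0.25, adjusted p = 1.3e-06). Stat6 itself fell little, by 0.18 on the log2 scale (SE 0.05, adjusted p = 0.012). Il4ra read 3849, 4366 and 6591 after M-CSF and 3306, 4139 and 4200 after IL-4, overlapping values that did not pass the test (adjusted p = 0.16). Without M-CSF library 1 its adjusted p was 0.049.

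Secreted products of alternative activation rose in 14 of 23 tested members and fell in 7, with a median log2 change of 1.45. The shares were 60.9% and 30.4%, against 22.7% and 21.2% of all tested genes. Chi3l3, the chitinase-like protein Ym1, was already present in M-CSF at 5873, 1817 and 2234 and reached 256244, 343200 and 477174 (log2 change 6.92, SE 0.59, adjusted p = 3e-07). With libraries 2 and 3 alone its change was 7.65, and reads shared with the near-identical Chi3l4 make its own level uncertain. Fn1, the matrix protein fibronectin, went from 1608, 2718 and 2301 to 17128, 66630 and 59031 (log2 change 4.24, SE 0.48), and to 4.86 without IL-4 library 1. Ccl22, a chemokine for T cells, read 344, 37.2 and 105 and then 1530, 713 and 844 (log2 change 3.13, SE 0.58, adjusted p = 0.00046). Its change was 3.94 without M-CSF library 1 and 2.35 without M-CSF library 2. Igf1, insulin-like growth factor 1, rose from 32483 to 39439 to a range of 79488 to 92228 (log2 change 1.21, SE 0.20). Among those that fell, Tgfb1 lost 0.42 on the log2 scale (SE 0.13, adjusted p = 0.015), and 0.33 without IL-4 library 1 (adjusted p = 0.074). Il10 read 21.8, 9.8 and 36.1 and then 8.6, 2.9 and 4.6 (adjusted p = 0.036). That call did not hold without M-CSF library 1 (adjusted p = 0.087), M-CSF library 3 (0.14), IL-4 library 2 (0.13) or IL-4 library 3 (0.086).

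Surface receptors of the alternatively activated state rose in 10 of 22 tested members and fell in 3 (median log2 change 0.88), 45.5% and 13.6% against 22.7% and 21.2% of all tested genes. Pdcd1lg2, the ligand of the inhibitory receptor PD-1, read 70.1, 41.5 and 39.9 and then 4432, 4626 and 4840 (log2 change 6.54, SE 0.27, adjusted p = 1.4e-10). Slamf1, a receptor of activated lymphocytes and phagocytes, went from 3.4, 5.5 and 7.6 to 553, 1039 and 720 (log2 change 6.90, SE 0.44, and 5.62 with 10 added in place of 1). Clec10a, the lectin next to Mgl2 in function, went from 269, 707 and 625 to 3188, 8230 and 7103 (log2 change 3.54, SE 0.44). In Clec10a and Mgl2 alike, number 1 was the lowest library of both groups. Mrc1, the mannose receptor, was high from the outset, at 15279, 22238 and 30035, and rose to 57253, 76734 and 80945 (log2 change 1.71, SE 0.21). Cdh1, the adhesion protein E-cadherin, read 9.2, 0 and 10.5 and then 311, 252 and 200 (log2 change 5.68, SE 0.72). It changed by 4.54 without M-CSF library 2 and by 6.3 without M-CSF library 3, and by 4.04 with 10 added. Cd209a, a dendritic cell lectin, fell by 1.88 on the log2 scale (SE 0.38).

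Transcription factors linked to the state rose in 10 of 18 members (55.6%, against 22.7% of all tested genes) and fell in 3 (median log2 change 1.15). Irf4, which STAT6 is known to induce, went from 399, 258 and 221 to 6521, 7010 and 5893 (log2 change 4.5, SE 0.28, adjusted p = 1.2e-08). Klf4, a zinc finger factor, went from 413, 326 and 289 to 2996, 3649 and 2981 (log2 change 3.23, SE 0.23). Nfil3 and Batf3, both basic leucine zipper factors, rose by log2 changes of 3.19 (SE 0.22) and 3.18 (SE 0.13). Myc, the growth regulator, rose by 1.87 (SE 0.24), and the lipid-sensing nuclear receptor gene Pparg by 1.19 (SE 0.31, adjusted p = 0.0056). Ppargc1b, a coactivator of mitochondrial genes, rose from 92.0, 92.9 and 82.7 to 728, 705 and 662 (log2 change 2.96, SE 0.23). Egr2 read 5196, 4912 and 4860 and then 15020, 9177 and 9268. Its groups did not overlap, yet it was not called (log2 change 1.12, SE 0.64, adjusted p = 0.17), whereas a fit restricted to the libraries compared gave adjusted p = 0.0034.

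Arginine genes showed uptake and arginase rising together. In that list 11 of 18 members rose (61.1%, against 22.7% of all tested genes) and 3 fell, with a median log2 change of 0.55. The lower count was 1 without M-CSF library 1, IL-4 library 2 or IL-4 library 3. Slc7a2, a transporter of cationic amino acids, went from 260, 528 and 378 to 15055, 16478 and 15971 (log2 change 5.40, SE 0.23, adjusted p = 1.4e-10). Gatm, which makes the creatine precursor guanidinoacetate from arginine, went from 1294, 2119 and 2401 to 11615, 17947 and 18671 (log2 change 3.07, SE 0.23). Nos2, the inducible nitric oxide synthase that competes for arginine, also rose but stayed low, from 1.1, 3.3 and 5.7 to 109, 22.3 and 63.3 (log2 change 3.80, SE 0.54). Without IL-4 library 2 its change was 4.42, and with 10 added in place of 1 it was 2.31.

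Lipid genes moved in several directions. In eicosanoid synthesis 9 of 16 members rose (56.2%, against 22.7% of all tested genes) and 1 fell (median log2 change 0.31). Without IL-4 library 1 the lower count was 2, and without M-CSF library 2 it was 3. Ptgs1, the constitutive cyclooxygenase, went from 364, 408 and 444 to 3055, 2574 and 2509 (log2 change 2.74, SE 0.20). Hpgds, which makes prostaglandin D2, went the other way, from 13396, 13029 and 12907 to 2556, 1759 and 1655 (log2 change -2.75, SE 0.18, adjusted p = 2.3e-08). Pla2g4a, the phospholipase that frees arachidonic acid, rose by 0.71 (SE 0.12), and Ptges2, a prostaglandin E synthase, by 1.01 (SE 0.10). Alox15, a lipoxygenase, stayed low at 14.3, 36.8 and 31.6 after IL-4 against 8.0, 4.4 and 12.4 (log2 change 1.62, adjusted p = 0.015). Its call was lost without M-CSF library 2 (adjusted p = 0.074), IL-4 library 2 (0.069) or IL-4 library 3 (0.056).

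Sterol synthesis rose in 19 of 23 members (median log2 change 0.82), 82.6% against 22.7% of all tested genes. Its single lower member was not called without M-CSF library 2, M-CSF library 3 or IL-4 library 2. Dhcr7, which makes cholesterol from its direct precursor, went from 1886, 1676 and 1637 to 5061, 3928 and 4772 (log2 change 1.4, SE 0.18). Nsdhl and Ebp, enzymes of earlier steps, rose by 1.20 (SE 0.14) and 0.53 (SE 0.06), and Insig1, the sterol-sensing brake on the pathway, by 0.82 (SE 0.12). LXR targets and cholesterol efflux genes gave 8 higher (57.1%) and 4 lower (28.6%) of 14 (median 0.65). Over all tested genes 21.2% were lower. In the LXR list Scd2, a fatty acid desaturase, rose by 2.28 (SE 0.29) and Abcg1, a cholesterol exporter, by 0.85 (SE 0.11). Lpcat3, a phospholipid remodelling enzyme, rose by 0.68 (SE 0.07). Apoc2, an apolipoprotein, fell from 573, 895 and 1012 to 94.0, 124 and 165 (log2 change -2.68, SE 0.24).

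Mitochondrial genes rose together by small, tightly measured amounts. In the TCA cycle and oxidative phosphorylation list 24 of 27 members rose and 1 fell (median log2 change 0.61). The risers were 88.9%, against 22.7% of all tested genes. Atp5b, a subunit of ATP synthase, went from 18876, 20024 and 20620 to 46506, 44210 and 45657 (log2 change 1.20, SE 0.09, adjusted p = 7.3e-08). Sdha of complex II rose by 0.79 (SE 0.06), Atp5a1 by 0.95 (SE 0.08) and Ndufs1 of complex I by 0.68 (SE 0.05). In fatty acid uptake, storage and oxidation 8 of 20 rose and 2 fell (median 0.31), with 1 lower member without M-CSF library 1 or IL-4 library 3 and 6 with libraries 2 and 3 alone. The risers included the oxidation enzymes Hadha (log2 change 0.59, SE 0.07) and Acadl (0.52, SE 0.07) and the electron carrier Etfdh (0.67, SE 0.08). Of 24 glycolysis and hypoxia genes 8 were higher and 5 lower (median 0.01), 33.3% and 20.8% against 22.7% and 21.2% of all tested genes. The lower count was 3 without M-CSF library 1, 2 or 3 or IL-4 library 3, and 8 with libraries 2 and 3 alone. The platelet-type phosphofructokinase gene Pfkp rose by 1.66 (SE 0.12) while the liver-type Pfkl fell by 0.91 on the log2 scale (SE 0.16). Pgk1 and Eno1, enzymes of the later steps, rose by 1.14 (SE 0.14) and 0.83 (SE 0.15).

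**Figure D2:**
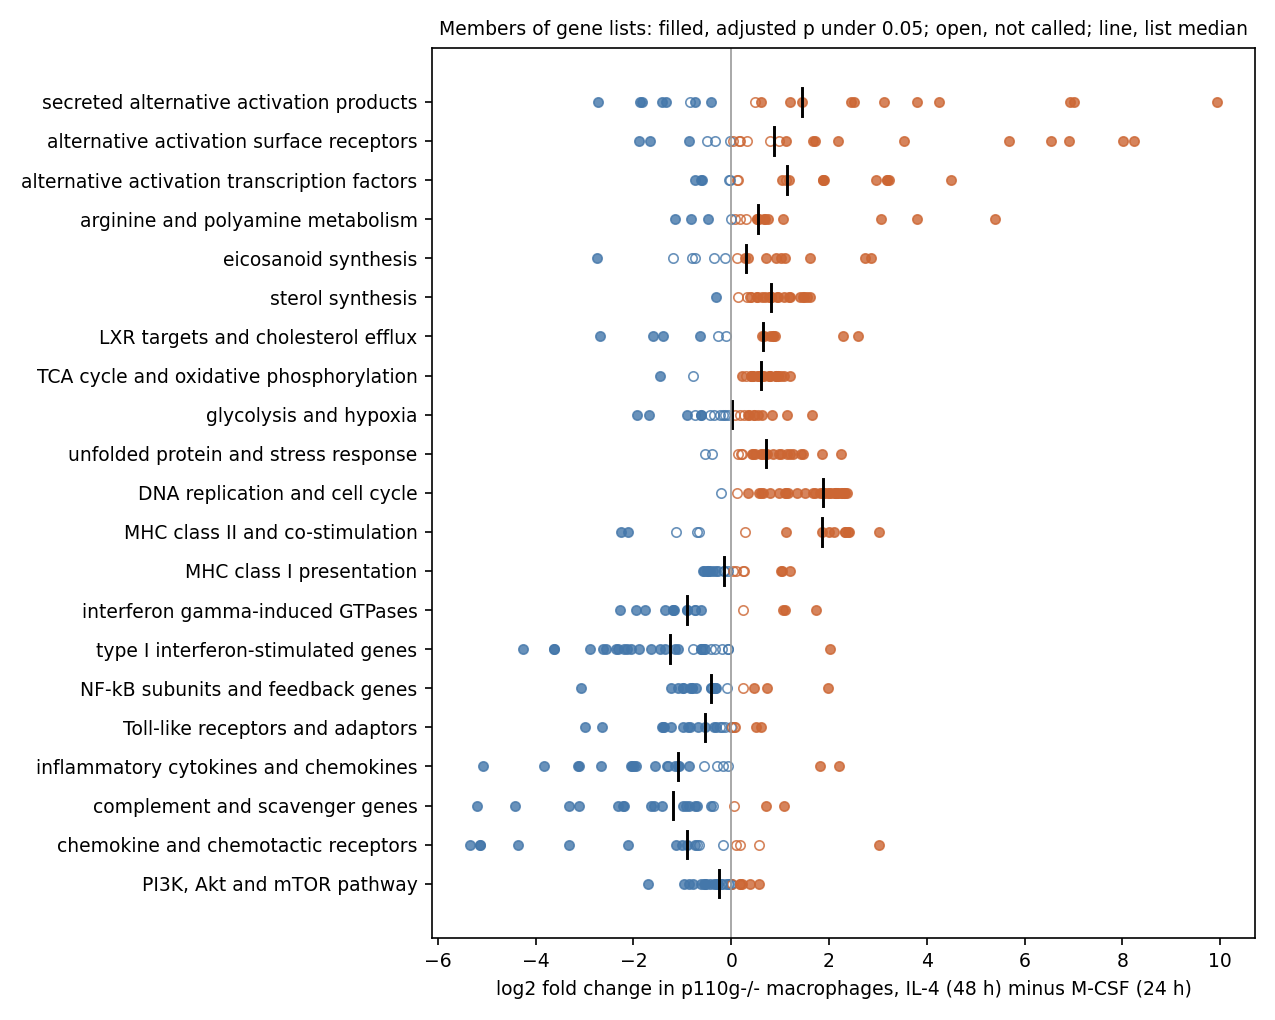
Log2 change, IL-4 minus M-CSF, of each member of 21 gene lists in p110g-/- macrophages. Orange points are above 0 and blue below, filled points passed the test and open points did not, and black lines are list medians. Members with at most 3 reads in each library of a group are not drawn. DNA replication genes lie almost wholly above 0 (median 1.87) and interferon-stimulated genes almost wholly below (median -1.25).

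DNA replication and cell cycle genes rose almost as a block. Of 34 members 32 rose and 0 fell, with a median log2 change of 1.87, against 22.7% of all tested genes that rose. Mcm7 of the replicative helicase read 597, 793 and 856 after M-CSF and 2403, 2939 and 2747 after IL-4 (log2 change 1.86, SE 0.23). Birc5, the mitotic protein survivin, went from 231, 398 and 406 to 1446, 1887 and 1638 (log2 change 2.30, SE 0.26), and Ccne1, the cyclin of S phase entry, rose by 2.13 (SE 0.23). Rrm1, a subunit of ribonucleotide reductase, rose by 1.67 (SE 0.17, adjusted p = 2.2e-06). The groups were separate in all 4 genes, as they were in 58.0% of all tested genes. These 4 had been named for the smallest p-values of the list, a choice that favours separation. The list of CDK inhibitors and growth brakes gave 1 higher and 5 lower of 14 (median -0.02), the latter 35.7% against 21.2% of all tested genes. Its higher count was 2 without M-CSF library 1, 3 without IL-4 library 1 and 6 with libraries 2 and 3 alone. Cdkn1c, the inhibitor p57, fell from 6471, 2304 and 2602 to 587, 285 and 447 (log2 change -3, SE 0.50). Cdkn1b, the inhibitor p27, fell by 0.99 on the log2 scale (SE 0.19), the stress sensor gene Sesn1 by 1.21 (SE 0.13) and the damage-response gene Gadd45a by 1.53 (SE 0.27).

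Folding factors of the endoplasmic reticulum rose in 17 of 22 members of the unfolded protein list, with 0 lower and a median log2 change of 0.72. Over all tested genes 22.7% were higher. Without IL-4 library 1 the lower count was 1. Pdia4, a disulfide isomerase, went from 3311, 3420 and 3640 to 15556, 15136 and 18685 (log2 change 2.25, SE 0.10, adjusted p = 3.7e-10). Sdf2l1, Creld2 and Pdia6, further lumenal folding factors, rose by 1.86 (SE 0.11), 1.47 (SE 0.09) and 1.42 (SE 0.07). The chaperones Calr and Pdia3, which also load MHC class I, rose by 1.20 (SE 0.10) and 1.01 (SE 0.06).

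In the MHC class II list 9 of 15 members rose (60.0%, against 22.7% of all tested genes) and 2 fell (median log2 change 1.86). When library number was a block, 4 fell. Ciita, the master regulator of class II transcription, went from 1867, 1455 and 975 to 10802, 12436 and 10497 (log2 change 3.02, SE 0.23, adjusted p = 9.9e-08). H2-DMa, H2-DMb1 and H2-DMb2, which exchange peptides on class II, rose by 2.11 (SE 0.22), 2.33 (SE 0.19) and 2.38 (SE 0.18). The invariant chain Cd74, named after its values were seen, went from 134958, 83681 and 65699 to 480075, 488022 and 478126. In the MHC class I list 3 of 19 rose and 8 fell (median -0.15). The lower count was 5 without M-CSF library 1 or IL-4 library 2 and 4 without M-CSF library 3, and the block fit gave 5 higher. Over all tested genes 21.2% were lower. No test compared the classes. The immunoproteasome subunit Psmb10 rose by 1.04 (SE 0.10), and H2-Q4, whose reads may be shared with other H2-Q genes, fell by 0.57 on the log2 scale (SE 0.14).

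Interferon-stimulated genes were lower after IL-4. Of 30 type I genes 19 fell and 1 rose, against 21.2% and 22.7% of all tested genes, and the median log2 change was -1.25. Oas2, a sensor enzyme for double-stranded RNA, read 1848, 554 and 1506 after M-CSF and 106, 31.0 and 64.1 after IL-4 (log2 change -4.26, SE 0.54, adjusted p = 1.7e-05). Ifit3, an antiviral tetratricopeptide gene, went from 1255, 366 and 1079 to 65.3, 52.3 and 75.6 (log2 change -3.62, SE 0.59). Irf7, the regulator of interferon genes, went from 1898, 564 and 3368 to 148, 85.3 and 151 (log2 change -3.62, SE 0.61), and to -4.34 without M-CSF library 2. M-CSF library 2 was the lowest of its group in Oas2, Ifit3, Irf7 and Oas3, yet it stayed above every IL-4 library in each. The 1 that rose was Usp18, named after its values were seen, a protease that removes ISG15, at 516, 136 and 389 before and 1300, 1161 and 1190 after IL-4 (adjusted p = 0.0039). Of 16 interferon gamma-induced GTPases 11 fell and 3 rose (median -0.90). Iigp1 fell by 1.94 on the log2 scale (SE 0.29), Tgtp1 by 2.28 (SE 0.34) and Irgm2 by 1.18 (SE 0.19), while Gbp2 rose by 1.74 (SE 0.16). Reads shared among Gbp and Tgtp copies make those values uncertain.

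Inflammatory signalling genes fell more often than tested genes as a whole, from receptor to cytokine. Of 23 Toll-like receptors and adaptors 14 fell and 2 rose (median log2 change -0.53). That was 60.9% and 8.7%, against 21.2% and 22.7% of all tested genes. Cd14, the lipopolysaccharide co-receptor, went from 10916, 10263 and 15304 to 1169, 1663 and 1808 (log2 change -2.98, SE 0.26, adjusted p = 3.1e-07). Tlr2, a receptor for bacterial lipoproteins, went from 3217, 2649 and 2659 to 474, 464 and 421 (log2 change -2.64, SE 0.20). Tlr13, which senses bacterial ribosomal RNA, fell by 1.41 on the log2 scale (SE 0.14) and the signalling kinase gene Irak2 by 1.24 (SE 0.12). Among NF-kB subunits and feedback genes 12 of 20 fell and 3 rose (median -0.42). Nfkbiz, a nuclear co-regulator, led with 490, 517 and 852 before and 53.1, 72.7 and 88.8 after IL-4 (log2 change -3.08, SE 0.33). The subunit Relb fell by 0.98 (SE 0.14), the kinase Ikbke by 0.99 (SE 0.08) and the adhesion molecule Icam1 by 1.24 (SE 0.16).

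Inflammatory cytokines and chemokines fell in 15 of 27 members (55.6%, against 21.2% of all tested genes) and rose in 2 (median log2 change -1.08). Without M-CSF library 1, IL-4 library 1 or IL-4 library 2, 1 rose. Tnf, tumour necrosis factor, went from 704, 408 and 551 to 154, 134 and 120 (log2 change -1.99, SE 0.18, adjusted p = 5e-07). Il1b, interleukin 1 beta, went from 118, 105 and 419 to 2.9, 3.9 and 6.2 (log2 change -5.08, SE 0.57), and changed by -4.45 without M-CSF library 3. Cxcl2, a neutrophil chemoattractant, went from 74.7, 28.4 and 68.4 to 7.2, 3.9 and 4.6 (log2 change -3.14, SE 0.35). For these 2 low genes the change was -3.7 and -2.06 with 10 added in place of 1. Il12b, a subunit of interleukins 12 and 23, was low throughout, at 29.9, 7.6 and 7.6 and then 2.9, 3.9 and 0.8 (adjusted p = 0.0079). Its log2 change of -2.02 became -1.4 without M-CSF library 1. It was not called by edgeR on recovered reads (adjusted p = 0.12) or with 10 added in place of 1 (0.091). Ccl9, a chemokine of the macrophage inflammatory protein family, rose from 24848, 22424 and 25778 to 74781, 93906 and 89619 (log2 change 1.82, SE 0.21).

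Of 20 complement and scavenger genes 16 fell (80.0%, against 21.2% of all tested genes) and 2 rose (median log2 change -1.20). Without M-CSF library 1, IL-4 library 2 or IL-4 library 3, 1 rose. Stab1, a scavenger receptor of tissue macrophages, went from 18985, 15808 and 16783 to 1003, 656 and 773 (log2 change -4.42, SE 0.14, adjusted p = 1.7e-11). C5ar1, the receptor of complement fragment C5a, went from 16300, 14830 and 17391 to 1793, 1146 and 2079 (log2 change -3.31, SE 0.17). Cd5l, a secreted scavenger protein, fell by 3.11 on the log2 scale (SE 0.24) and Axl, a receptor for apoptotic cells, by 2.19 (SE 0.19). Marco, a scavenger receptor for bacteria, went from 524, 90.7 and 245 to 7.9, 1.0 and 12.3 (log2 change -5.20, SE 0.86). It was sensitive to single libraries, at -4.6 without M-CSF library 1, -5.86 without M-CSF library 2 and -4.39 without IL-4 library 2.

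Chemotactic receptors fell in 10 of 17 members (58.8%, against 21.2% of all tested genes) and rose in 1 (median log2 change -0.91). Without M-CSF library 3, 2 rose. Cx3cr1, the fractalkine receptor, went from 460, 198 and 517 to 5.7, 7.8 and 10.8 (log2 change -5.35, SE 0.34, adjusted p = 1.3e-08). Cxcr3, the receptor for interferon-induced chemokines, went from 272, 172 and 224 to 2.2, 12.6 and 4.6 (log2 change -5.14, SE 0.45). Fpr2, a formyl peptide receptor, went from 118, 55.7 and 206 to 4.3, 3.9 and 5.4 (log2 change -4.35, SE 0.44). With 10 added in place of 1 these changes were -4.37, -3.85 and -3.07. Ccrl2, an atypical chemoattractant receptor, fell by 2.10 on the log2 scale (SE 0.18). Many of these receptors signal through G proteins, as do the upstream activators of p110gamma. In WT cells 10 of the 17 members fell too (median -1.04), and limma called 0 members for the genotype difference. A link of these falls to the loss of p110gamma was not tested.

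Among the macrophage identity genes that fell, the transcription factor Maf went from 6380, 8952 and 8681 to 507, 1026 and 1076 (log2 change -3.26, SE 0.24). Fcgr1, the high-affinity IgG receptor, went from 5748, 6225 and 11405 to 644, 840 and 986 (log2 change -3.19, SE 0.23). In the Fc receptor list of 7 tested genes 3 fell (42.9%, against 21.2% of all tested genes) and 1 rose (median -0.38). The riser was Fcgr2b, the inhibitory receptor, with 9481, 13747 and 12929 before and 19458, 30523 and 31669 after IL-4 (log2 change 1.16, SE 0.24). The shared signalling chain Fcer1g fell by 0.64 on the log2 scale (SE 0.08). Fcgr4, an activating receptor, fell by 0.73 (SE 0.21, adjusted p = 0.0097), and by 0.59 without M-CSF library 3, with adjusted p = 0.051.

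Of the genes selected by size, the largest decrease was in Gpr162, an orphan receptor gene, which went from 7227, 4330 and 4209 to 83.2, 105 and 108 (log2 change -5.68, SE 0.35, adjusted p = 1e-08). Clec4e, the lectin Mincle that binds mycobacterial glycolipid, went from 1678, 674 and 1248 to 84.7, 38.8 and 59.4 (log2 change -4.25, SE 0.40). The Wnt inhibitor gene Dkk2 fell by 4.79 on the log2 scale (SE 0.49) and Fcrl1, an Fc receptor-like gene, by 4.35 (SE 0.29). Bmp2, a bone morphogenetic protein, fell by 4.63 (SE 0.62), and by 5.45 without M-CSF library 1. The paired receptor gene Pilrb2 and the small GTPase genes Rhod and Rrad had log2 changes of -3.92 (SE 0.32), -3.93 (SE 0.40) and -3.85 (SE 0.31). With 10 added in place of 1, the changes were -4.2 for Dkk2, -3.21 for Bmp2 and -2.92 for Rhod.

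Integrins and adhesion genes gave 6 higher and 10 lower of 19 (median log2 change -0.43), or 31.6% and 52.6%. Over all tested genes the shares were 22.7% and 21.2%. Itga6, a laminin receptor subunit, went from 7403, 8063 and 11267 to 1753, 1510 and 1541 (log2 change -2.45, SE 0.11, adjusted p = 4.5e-10). Itga9 fell by 3.36 on the log2 scale (SE 0.36) and Alcam, an adhesion molecule of the immunoglobulin family, by 0.84 (SE 0.11). Growth factors and repair genes gave 6 higher (25.0%) and 11 lower (45.8%) of 24 (median -0.76). Thbs1, the matrix protein thrombospondin 1, went from 7373, 6619 and 7040 to 1120, 861 and 997 (log2 change -2.83, SE 0.23). Mmp13, a collagenase, went from 555, 427 and 438 to 2985, 2719 and 2111 (log2 change 2.45, SE 0.26). Vegfc, a lymphatic growth factor, went from 2.3, 6.6 and 13.3 to 130, 113 and 134 (log2 change 4.15, SE 0.54, and 3.01 with 10 added in place of 1). Fusion and osteoclast genes gave 7 higher and 4 lower of 16 (median 0.45), 43.8% and 25.0% against 22.7% and 21.2% of all tested genes. Without IL-4 library 2 the lower count was 2. Acp5, the tartrate-resistant phosphatase of osteoclasts, rose by 2.09 (SE 0.23), Adam8, a surface protease, by 1.33 (SE 0.14) and the collagen-degrading protease gene Ctsk by 1.37 (SE 0.22). Tnfrsf11a, the RANK ligand receptor, fell by 0.74 on the log2 scale (SE 0.07).

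Of 30 lysosomal genes 6 were higher and 6 lower (median log2 change -0.05), 20.0% each way against 22.7% and 21.2% of all tested genes. With libraries 2 and 3 alone 10 were lower. Among the most abundant messages of the cells, Psap and Ctsd went opposite ways. Psap, the precursor of the sphingolipid activators, went from 949370, 1071169 and 973075 to 1513622, 1413761 and 1513415 (log2 change 0.57, SE 0.15, adjusted p = 0.005). Quantile normalisation took that call away (log2 change 0.23, adjusted p = 0.34). Ctsd, an aspartic protease, went from 627944, 725028 and 756605 to 403790, 313744 and 399864 (log2 change -0.92, SE 0.17). Glb1, the beta-galactosidase, rose by 0.69 (SE 0.06) and the sialidase gene Neu1 fell by 0.47 on the log2 scale (SE 0.08). Ctsb, at 789242 to 905932 after IL-4, did not pass the test (adjusted p = 0.2).

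Of 26 PI3K, Akt and mTOR genes 13 fell and 4 rose (median log2 change -0.24), or 50.0% and 15.4%. Over all tested genes the shares were 21.2% and 22.7%. Without M-CSF library 1 or 3, or IL-4 library 2 or 3, 2 rose. Of the other catalytic subunits, p110beta and p110delta were lower after IL-4. Pik3cb (p110beta) went from 4822, 5010 and 4663 to 3010, 2489 and 2449 (log2 change -0.87, SE 0.10, adjusted p = 5.2e-06). Pik3cd (p110delta) went from 8976, 9901 and 10042 to 7094, 8004 and 7504 (log2 change -0.36, SE 0.11, adjusted p = 0.014). Its adjusted p was 0.05 without M-CSF library 3 and 0.054 without IL-4 library 1. Pik3ap1, the adaptor BCAP of Toll-like and B cell receptors, fell from 21828, 16717 and 20663 to 7565, 5073 and 5644 (log2 change -1.71, SE 0.16). The lipid phosphatase genes moved apart, with a log2 change of -0.56 (SE 0.08) for Inpp5d, which encodes SHIP1, and of 0.38 (SE 0.06) for Inpp4a.

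Signs of other cells and of handling were read from the same libraries. Immediate early and stress genes gave 3 higher and 3 lower of 16 (median log2 change -0.04), 18.8% each way against 22.7% and 21.2% of all tested genes. The log2 change was 2.76 (SE 0.27) for Ier3, 1.10 (SE 0.16) for Jun, -1.01 (SE 0.26) for Dusp1 and -2.22 (SE 0.46) for Nr4a1. Of 12 neutrophil markers 1 fell (8.33%, against 21.2% of all tested genes). Their summed signal was 19483 to 36756 after M-CSF and 13546 to 16468 after IL-4. The one called, Camp, lost its call without M-CSF library 1 (adjusted p = 0.11), IL-4 library 2 (0.076) or IL-4 library 3 (0.078). In the fit that blocked on library number, S100a8 was also called lower (adjusted p = 0.0048 against 0.074) and Retnlg higher (0.019 against 0.053). Retnlg was also called without M-CSF library 2 (0.042), M-CSF library 3 (0.0091) or IL-4 library 1 (0.038). Dendritic cell markers summed to 11577 to 12256 and then 7685 to 8653, with 85.5% of the signal over the 6 libraries from Irf8. Of the 12 markers 4 fell and 2 rose, 33.3% and 16.7% against 21.2% and 22.7% of all tested genes. Irf8, a factor of dendritic cells and macrophages, fell by 0.89 on the log2 scale (SE 0.09), while Zbtb46 rose from 11.5, 8.7 and 15.2 to 88.2, 65.9 and 79.5. The part of these cells in the MHC class II, Toll-like receptor and cytokine results was not tested.

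The remaining marker lists were low or carried by a gene that macrophages express. Of T and NK markers 20.0% were lower, of fibroblast markers 11.1% were lower and of B cell markers 16.7% were higher. Over all tested genes 21.2% were lower and 22.7% higher, so these shares were no larger. T and NK markers summed to 1507 to 1887 and then 314 to 377. Cd4 alone made up 89.5% of the list's signal over the 6 libraries. Cd4, the 1 of 5 tested members that fell, read 1758, 1780 and 1417 and then 174, 268 and 219. Gzma, named after its values were seen, was at 0 in all 3 M-CSF libraries. Fibroblast markers summed to 2636 to 5908 and then 1607 to 2603, and 1 of 9 fell, Col3a1 (log2 change -1.95, SE 0.53), or 2 without M-CSF library 1. B cell markers summed to 10679 to 11629 and then 11464 to 14158, with 79.2% of the signal over the 6 libraries from Blnk. Blnk was the 1 of 6 that rose (log2 change 0.30, adjusted p = 0.019), and it was not called without M-CSF library 1 (adjusted p = 0.096) or IL-4 library 1 (0.1). Mast cell, basophil and eosinophil markers summed to 1105 to 1335 and then 932 to 1104, and 0 of 8 were called by limma. Prg2 was called lower with the block (adjusted p = 0.021 against 0.12). Over the 6 libraries, 99.9% of the erythroid signal came from Tfrc, the transferrin receptor of growing cells. Tfrc went from 7421, 6442 and 7141 to 58840, 51274 and 57565 (log2 change 3.00, SE 0.15, adjusted p = 9.4e-10). Epor fell by 1.48 on the log2 scale (SE 0.47), without a call when M-CSF library 2 (adjusted p = 0.077) or IL-4 library 3 (0.098) was left out.

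The same response was then read in WT macrophages, which share no library with the mutant comparison, to set the 2 responses side by side. In WT cells 6868 genes were called, 43.9% of those tested, 3577 higher and 3291 lower. Both genotypes called 5330 genes, 77.8% of the p110g-/- calls and 77.6% of the WT calls. Of these, 2840 rose in both, 2487 fell in both and 3 moved in opposite directions. Across the 15627 genes the 2 responses had a Pearson r of 0.901, as a description, since genes are not independent replicates. The difference of the responses was within 0.5 on the log2 scale for 85.2% of genes. limma called 0 genes for that difference and edgeR also 0, while 1156 genes (7.4%) had an unadjusted p under 0.05 and DESeq2 called 77. Without IL-4 library 1 of the p110g-/- group, limma called 89. With only libraries 2 and 3 of each group it called 385, of which 84 were among the 89 and 56 among the 77. With all libraries, 1 added, trend and robust settings and no block, the smallest adjusted p was 0.083. In that fit limma called 0 list members for the difference. With the block it called Gatm of the arginine list, and without IL-4 library 1 of the p110g-/- group it called Gatm, Ccl24, Ccrl2, Stab1 and Pik3cb among others. A gene called in only 1 genotype is not shown to differ.

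**Figure D3:**
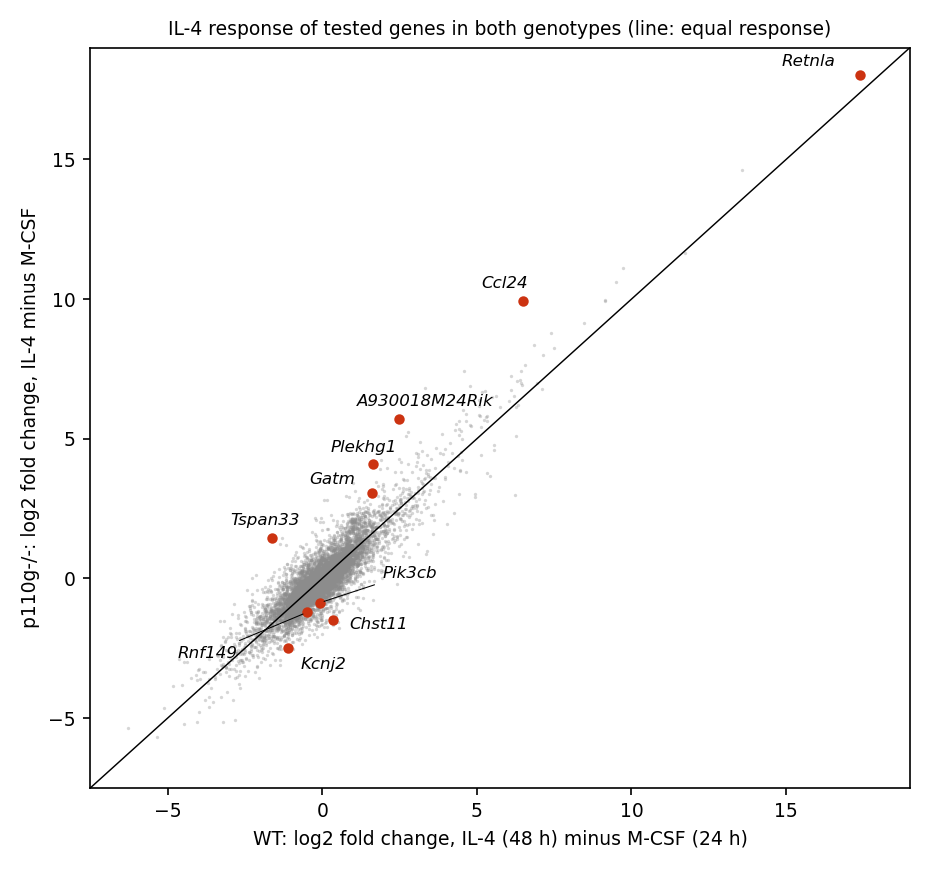
Log2 change, IL-4 minus M-CSF, in WT (x axis) and in p110g-/- macrophages (y axis), 1 grey point per tested gene, with the line of equal response and 10 named genes in red. Genes with a group at or below 3 reads, such as Retnla, are drawn at their fitted value, which is no bound. Most points lie along the line, with Tspan33, A930018M24Rik and Plekhg1 above it and Chst11 and Kcnj2 below it.

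The genes with the smallest adjusted p for the difference follow. None of them passed in limma with all libraries, 1 added, trend and robust settings and no block. Of those below, DESeq2 on all libraries called Plekhg1, Rnf149, Pik3cb, Chst11, Kcnj2, Gatm and Naaa. A930018M24Rik, which carries no functional name in the table, went from 3.4, 6.6 and 6.7 to 242, 462 and 332 in p110g-/- cells. In WT cells it went from 18.4, 21.0 and 11.9 to 80.8, 117 and 96.0. The log2 change was thus 5.72 in p110g-/- and 2.47 in WT, a difference of 3.25 (95% interval 2.31 to 4.18, adjusted p = 0.083). Plekhg1 started from 41.4, 13.1 and 34.2 in p110g-/- M-CSF, against 568 to 676 in WT M-CSF. It rose to 361 to 631 in the mutant and to 1768 to 2424 in WT, and the mutant IL-4 values did not exceed the highest WT M-CSF value. Its difference of log2 changes was 2.45 (95% interval 1.61 to 3.28, adjusted p = 0.1). Rnf149, a ubiquitin ligase gene, fell from 22303, 23225 and 25204 to 10906, 9801 and 9690 in p110g-/- cells and from 12943 to 13933 to a range of 8926 to 10626 in WT. The difference was -0.72 (95% interval -0.95 to -0.49, adjusted p = 0.087), with genotype ranges that were apart after M-CSF and overlapped after IL-4.

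Pik3cb stood among them too. It fell by 0.87 on the log2 scale in p110g-/- cells, whereas in WT it read 3785, 4315 and 4082 after M-CSF and 3453, 3927 and 4248 after IL-4, overlapping values with a log2 change of -0.07. The difference was -0.80 (95% interval -1.08 to -0.53, adjusted p = 0.1). Chst11, a chondroitin sulfotransferase gene, went from 2201, 2810 and 2805 to 1015, 918 and 827 in the mutant and from 1614, 3409 and 2221 to 2086, 3490 and 3449 in WT (difference -1.84, 95% interval -2.49 to -1.19, adjusted p = 0.1). Kcnj2, an inward rectifier potassium channel gene, fell by 2.50 on the log2 scale (SE 0.20) in the mutant and by 1.10 in WT (difference -1.39, adjusted p = 0.21). Gatm rose by 3.07 in the mutant and 1.6 in WT (difference 1.46, adjusted p = 0.22), and Naaa, an acid amidase, by 2.34 and 1.5 (difference 0.85, adjusted p = 0.22). Blocking on library number, limma called 8 differences, among them A930018M24Rik, Tspan33, Rnf149, Chst11, Gatm and Piwil2.

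**Figure D4:**
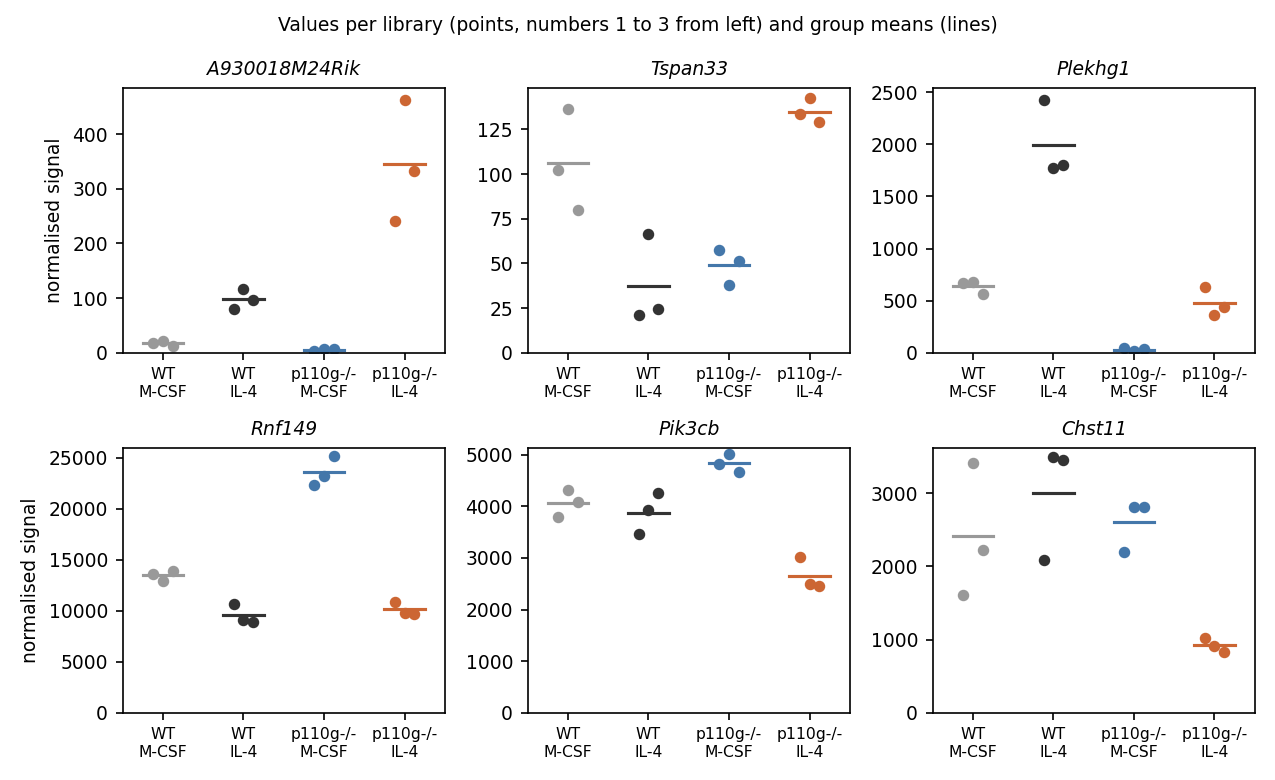
Normalised signal of 6 genes in the WT and p110g-/- groups after M-CSF and after IL-4. Points are libraries 1 to 3 from left to right and lines are means of 3. Pik3cb and Chst11 are lower in all 3 p110g-/- IL-4 libraries than in the other 9 libraries shown.

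Of the classical IL-4 genes, Retnla, Arg1, Chi3l3, Mrc1, Pdcd1lg2 and Irf4 were not called for the difference with all libraries. Retnla and Arg1 had at most 3 reads in every M-CSF library of both genotypes, so no difference of folds is given for them. The difference of log2 changes, p110g-/- minus WT, was 0.86 for Mrc1 (95% interval 0.26 to 1.45, adjusted p = 0.51), 0.35 for Pdcd1lg2 and 0.32 for Irf4. For Chi3l3 it was 0.47, and ran from -0.39 to 1.03 with 1 library left out. Ccl24 differed by 3.46 (95% interval 1.79 to 5.13, adjusted p = 0.28), with WT values of 13.8, 17.5 and 10.8 before and 607, 2800 and 1346 after IL-4. Cish differed by 1.44 (adjusted p = 0.33), rising in WT from 63.0, 31.5 and 43.3 to 2239, 1647 and 1429. Ccl24 and Cish were called by DESeq2. Among the 38 lists, DNA replication showed the widest gap between the medians, 1.87 in p110g-/- against 0.97 in WT, where 30 of 34 members rose. The median difference over its members was 0.57, and none was called for it by limma. Birc5, for instance, read 804, 882 and 470 in WT M-CSF, all above the 231 to 406 of p110g-/- M-CSF, and its difference of 1.38 had an adjusted p of 0.33.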

How the data were processed

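RNA of 18 macrophage libraries was read by sequencing. The authors deposited 1 table of normalised signal, in which each gene's read count was divided by a factor for its library; every value was a whole multiple of 1 step, and 100% of the lowest values gave whole reads within 0.1. Per the submitters' processing notes, CASAVA 1.8.2, Bowtie2, DESeq and mm9 were used. The counting method, annotation and strand setting are not given in the sources used here, so overlapping genes and near-identical copies are uncertain.

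Genes that reached 10 in 3 or more libraries were analysed as log2(signal + 1) with limma 3.58.1 (R 4.3.3, trend and robust settings), 6 groups in 1 fit with 12 residual degrees of freedom and Benjamini-Hochberg adjustment over all tested genes. These log2 changes understate the change of low genes. edgeR 4.0.16 and DESeq2 1.42.0 on recovered reads were alternatives, beside other pseudocounts, filters, scalings, libraries left out and a replicate block. Floors cover counting error only. The fits were tested on simulated data.

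The members and gene lists were chosen with earlier results of these data known. Genes are named from a fixed list, the 15 largest changes per direction with no overlap and a mean of at least 50, up to 4 smallest p-values per list, the 10 smallest p-values per direction of the genotype difference, and the 5 highest means. Csf1r, Itgam, Il13ra1, Cd74, Usp18 and Gzma were added after their values were seen. Pdk1, listed in error, was taken out of the PI3K list. Same-numbered p110g-/- libraries deviated together (correlations of 0.397, 0.248 and 0.187), a pairing read from the data and not from the labels. Promoter windows came from RefSeq (GRCm38.p6).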

Additional observations from a re-analysis of the deposited data

Results flagged for a closer look

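Tspan33, a tetraspanin gene, moved in opposite directions in the 2 genotypes. In p110g-/- macrophages it read 57.5, 38.2 and 51.3 after M-CSF and 133, 142 and 129 after IL-4, a log2 change of 1.46 (SE 0.34, adjusted p = 0.0029). In WT macrophages it read 102, 136 and 80.1 after M-CSF and 21.4, 66.4 and 24.6 after IL-4, a log2 change of -1.63 (adjusted p = 0.0014). Every mutant library after IL-4 was above every mutant library before it, and the WT libraries showed the reverse. The difference of the log2 changes was 3.09 (95% interval 2.14 to 4.05), and limma's test of that difference did not pass over all genes (adjusted p = 0.087).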

How the results depend on the processing

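The count of genes called for the p110g-/- response was 5820 to 6103 with 1 library left out, against 6855, and 5820 to 7607 over all 19 alternatives. It was 7510 with the replicate block. Among named genes, no change that was called with the settings above or in an alternative had the opposite direction in the other. Uncalled changes did switch sign. That of Lck, at 0.18, ran from -0.41 to 0.83. The p110g-/- calls that the pairing block changed among named genes were those of Retnlg, S100a8 and Prg2.

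The count called for the genotype difference, 0 with limma, moved most. It was 10 (8 higher, 2 lower) with a pseudocount of 10 and 2 (2 higher) without trend and robust settings. With the replicate block it was 8 (4 higher, 4 lower), and 13 (7 higher, 6 lower) with edgeR and the block. DESeq2 gave 77 (26 higher, 51 lower), and libraries 2 and 3 alone gave 385 (131 higher, 254 lower). With 1 library left out the count ranged from 0 to 89, with 0 to 31 higher and 0 to 58 lower. The 89 arose without p110g-/- IL-4 library 1; leaving out WT M-CSF library 2 or WT IL-4 library 2 gave 1 each. The cause was not tested. Among other results, 9997 outcomes under alternatives kept their call status or, for list counts, moved by no more than 1.5 fold. Another 126 gained and 25 lost a call, and 92 counts moved further. A kept call did not mean an unmoved size, as for Ccl24, at 9.94 and at 8.42 with a pseudocount of 10. With 3 libraries a group, the median SE was 0.14 for the response and 0.2 for the difference, which limits what could be called.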

Other observations

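Signal summed over Y-linked genes was 25.4 and 31.6 in the WT libraries numbered 1, after M-CSF and IL-4, and 2713 to 5021 in the WT libraries numbered 2 and 3. In p110g-/- macrophages it was 2549, 5169 and 3974 after M-CSF and 2683, 5645 and 3992 after IL-4. The order of the numbers was the same under both stimuli in the mutant. The X-linked gene Xist was read in all of these libraries. It was at 10153 and 13556 in the WT libraries numbered 1 and at 5648 to 9805 in those numbered 2 and 3. In p110g-/- macrophages it was at 5739 to 10186. The labels used here do not say what the number stands for, and its part in the genotype difference was not tested.

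Of the 3 genes called in both genotypes in opposite directions, Tspan33 had the smallest adjusted p for the difference.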
